A study of Mus musculus with 6 samples.

Results

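The genes described here mark the epithelium of branchial arch 1, the embryonic tissue from which the jaws form. They are 35 genes with textbook roles in epithelial cells, chosen by name. All 35 were found among the 18194 genes of the array that have a probe set (a group of probes for 1 transcript) with a single gene symbol, and they are covered by 63 of the 45101 probe sets. Each gene is represented by its brightest probe set, and values are log2 signals as deposited, so that a difference of 1 is a 2-fold difference. The mice carried conditional (lox) alleles of Ezh2, which encodes the methyltransferase of Polycomb repressive complex 2. Arches of Ezh2lox/lox embryos form the labelled-control group (3 samples) and arches of Wnt1Cre Ezh2lox/lox embryos the labelled-mutant group (3 samples). All were at embryonic day 11.5, with 1 array per sample. The labels give 1 arch taken per embryo and do not say whether embryos were pooled. An arch below therefore means the sample on 1 array. Both groups carry the lox alleles, and the mutant group differs by the Wnt1Cre transgene, which acts in the neural crest lineage. Differences are labelled mutant minus labelled control throughout.

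As background, the arch is a core of mesenchyme, mostly from the neural crest, wrapped in a sheet of epithelium that comes from ectoderm on the outside and endoderm on the inside. The epithelium lies largely outside the lineage that Wnt1Cre marks, and it sends the signals that pattern the mesenchyme. Simple epithelia build their filaments from keratins such as Krt8 and Krt18. The basal layer of stratifying epithelia switches to Krt5, Krt14 and Krt15 under the transcription factor p63, the product of Trp63.

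Facts on the series as a whole bear on every value below. Arrays correlated at 0.995 to 0.998 within groups and 0.988 to 0.992 between groups over all genes, and the authors' values share 1 distribution over the 6 arrays. The probe set of Ezh2 read 11.52 to 11.80 in the controls and 11.65 to 11.66 in the mutants; its position against the floxed exons is not known here, so it checks no label. Xist, made in female cells, read 5.45 to 5.75 on the control arrays and 12.92 to 13.10 on the mutant arrays. Sex of the embryo and genotype label therefore cannot be told apart. The mesenchyme of the arch was clearly present, with Prrx1 at 12.23 to 12.64 and Twist1 at 11.10 to 11.52.

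Epithelium was clearly present in every arch. Signals of 30 of the 35 genes lay above the median of all probe sets on all 6 arrays, as did 11035 of all 18194 genes. Each gene is taken from its brightest probe set, which raises this count for any list. Epcam, an adhesion molecule of nearly all epithelia, read 10, 10.23 and 10.69 in the controls and 10.13, 10.12 and 10.27 in the mutants. Trp63 read 9.31, 9.13 and 9.87 against 9.54, 9.61 and 9.48. On these probe sets, both genes spread more widely among the controls than among the mutants, and the groups overlapped. The 2 probe sets of Epcam changed by -0.13 and 0.11, and the 4 of Trp63 by -0.27 to 0.13. Krt17 and Ehf lay below the 25th percentile of all signals on all 6 arrays. Ovol2 (4.77 to 5.43), Marveld2 (5.70 to 6.33) and Sfn (5.65 to 6.62) completed the list at intermediate signals.

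The level of epithelial genes varied from arch to arch, and most widely among the labelled-control arches. Each gene's deviation from its own mean over the 6 arrays was taken, and the median over the 35 genes gave an epithelial offset for each array. It was -0.22, -0.13 and 0.24 on labelled-control arrays 1, 2 and 3, and 0.11, 0.05 and 0.00 on labelled-mutant arrays 1, 2 and 3. The 3 mutant arches thus lay between control array 3 and the other two controls. The range was 0.46 over the controls and 0.10 over the mutants. For the median of all genes it was 0.05 and 0.02, but the shared distribution holds that median near 0. It is therefore no yardstick for a short list. Among marker lists of other cell types, control and mutant ranges were 0.24 and 0.16 (endothelial), 0.38 and 0.20 (macrophage) and 0.73 and 0.33 (erythroid). They were 0.12 and 0.28 for mesenchyme, 0.30 and 0.77 for muscle, and 0.06 and 0.23 for neuronal genes. The group means of the epithelial offset differed by 0.09, which is less than the pooled spread of 0.18 (SD) between arrays of a group. It was 0.24 without control array 3, and 0.04 without control array 1 and without control array 2. In whole-tissue RNA, a smaller number of epithelial cells and less RNA per epithelial cell cannot be told apart.

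**Figure D1:**
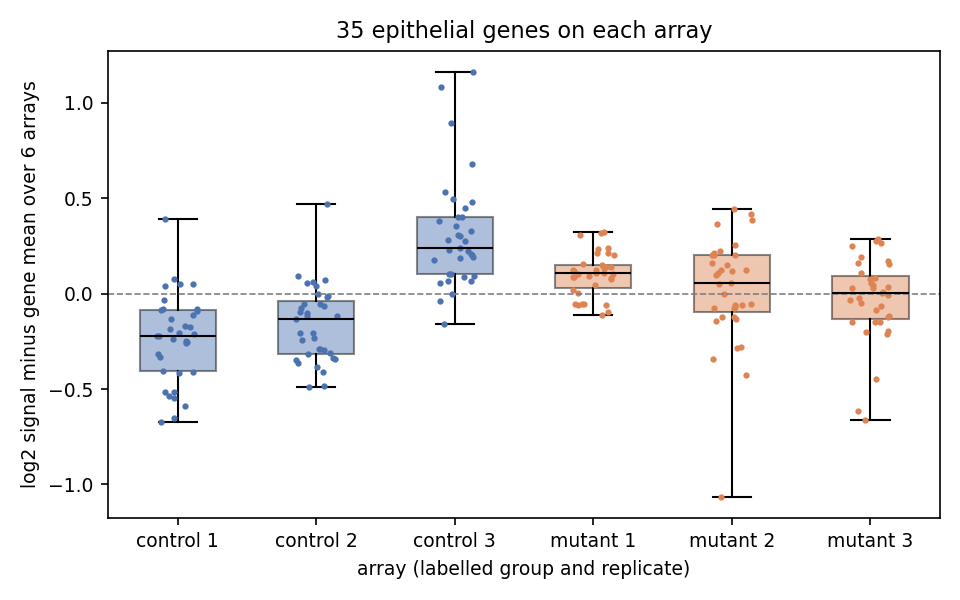
Deviation of each of the 35 epithelial genes from its own mean over 6 arrays (vertical axis, log2), for each array (horizontal axis); points are genes, boxes span the quartiles with the median as a line, and whiskers reach the lowest and highest gene. Control array 3 has the highest median (0.24) and control array 1 the lowest (-0.22), with the 3 mutant arrays between them.

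Labelled-control array 3 carried the highest control value for 33 of the 35 genes, the exceptions being Jup and Dsg2. Over all genes, that array was the highest control for 41.4%. It was also the highest of all 6 arrays for 19 epithelial genes, against 24.8% of all genes. Labelled-control array 1 was the lowest control for 24 of 35, and array 2 for the other 11. Over all genes these shares were 35.2% for array 1 and 38.2% for array 2. The excess of array 3 over the mean of control arrays 1 and 2 had a median of 0.57 over the epithelial genes. Over all genes the median was 0.04, which the shared distribution holds near 0. The excess was largest for Krt14 (1.48), Sfn (0.95), Krt5 (0.94) and Krt15 (0.91), and near 0 for Jup (-0.01), Elf3 (0.05) and Dsg2 (0.09). Sfn encodes 14-3-3 sigma, a protein of stratifying epidermis. The median SD among the epithelial genes was 0.34 in the controls and 0.11 in the mutants, and over all genes it was 0.12 and 0.08.

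**Figure D2:**
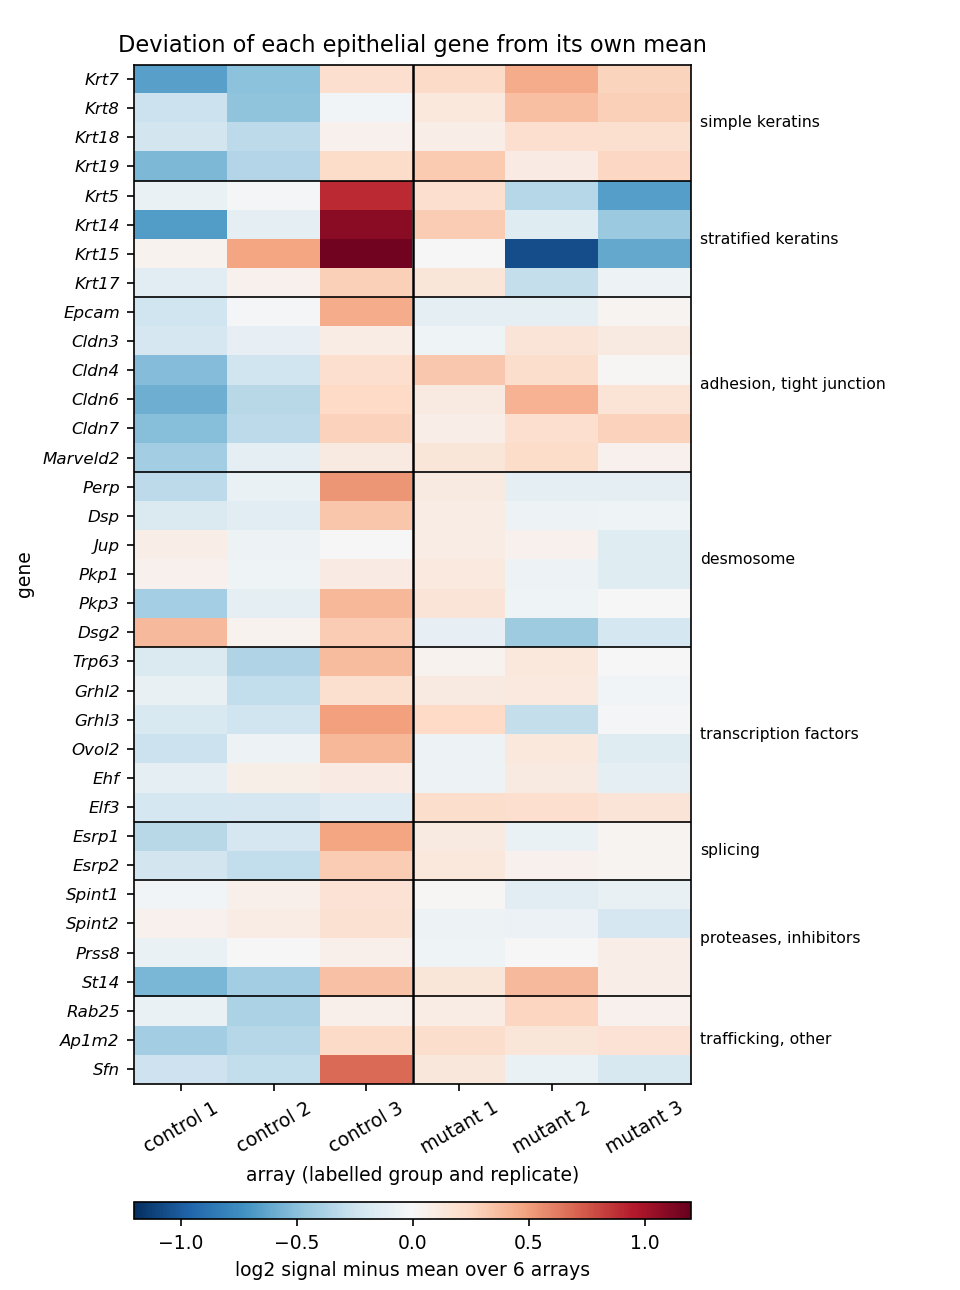
Deviation of every epithelial gene (rows, grouped by role) from its mean over the 6 arrays, on each array (columns), in log2 units on the colour scale; red is above and blue below the gene's mean, and a vertical line divides the 3 labelled-control from the 3 labelled-mutant arrays. Red fills most of the column of control array 3, blue most of control array 1, and among the mutants Krt5, Krt14 and Krt15 are blue on arrays 2 and 3 while the simple keratins are red.

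Other cell types also differed between arrays, and those values stand beside the epithelial ones. Control array 3 had the highest erythroid offset (0.60 over 9 genes, against -0.36 to 0.17 on the other 5 arrays) and the highest macrophage offset (0.42 over 10 genes, against -0.24 to 0.09). Summed linear signal of the erythroid markers ranged from 55125 to 65523 in the controls and from 52087 to 56900 in the mutants. For the macrophage markers it ranged from 1530 to 2030 and from 1212 to 1481. Of the erythroid genes 1 fell and 0 rose, and of the macrophage genes likewise 1 fell and 0 rose (limma, Benjamini-Hochberg adjusted p under 0.05). Endothelial offsets stayed between -0.13 and 0.11, with 0 of 12 genes past the threshold and 0 at an unadjusted p under 0.05. Mesenchymal offsets were 0.15, 0.22 and 0.27 on control arrays 1, 2 and 3, and -0.29 to -0.01 in the mutants. Of 18 mesenchymal genes 8 were lower and 1 higher, and summed signals were 61240 to 69138 against 44916 to 51910. Of 10 muscle markers 5 fell and 0 rose. Over all genes, 1.23% rose and 4.3% fell at the adjusted threshold, and 18.7% had an unadjusted p under 0.05 in either direction. The part of these cell types in the epithelial values was not tested.

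**Figure D3:**
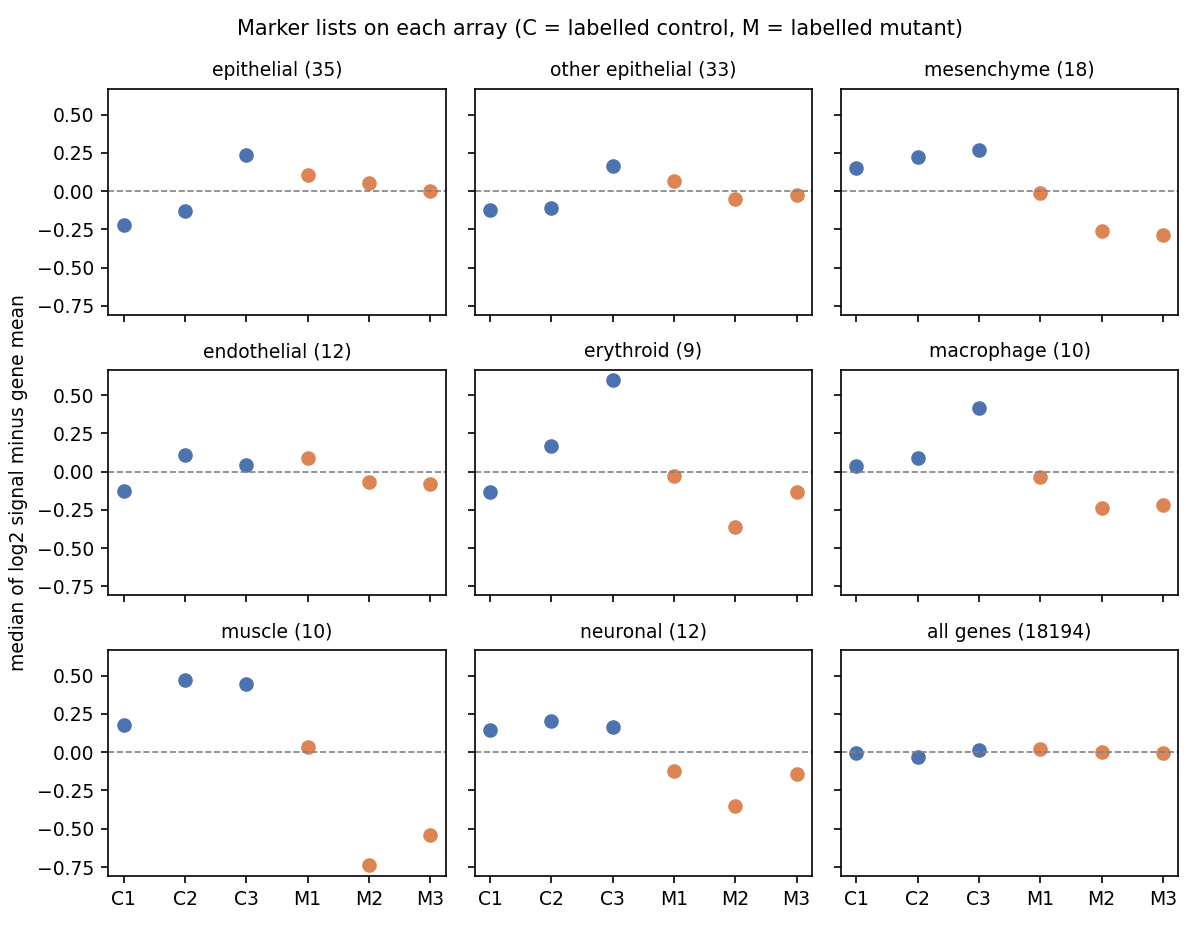
Median deviation of each marker list (panels, number of genes in brackets) on labelled-control arrays 1 to 3 (C1 to C3, blue) and labelled-mutant arrays 1 to 3 (M1 to M3, orange), in log2 units. Control array 3 stands highest for the epithelial, other epithelial, mesenchyme, erythroid and macrophage lists. The median of all genes stays near 0 on every array.

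Between the groups, 2 of the 35 epithelial genes rose and 0 fell in the mutants (limma, Benjamini-Hochberg adjusted p under 0.05 over all 18194 genes). Over all genes, 1.23% rose and 4.3% fell, 5.53% in all. At an unadjusted p under 0.05, 6 epithelial genes were higher and 3 lower, and 18.7% of all genes reached that level in either direction. The groups did not overlap for 7 of 35 genes, or 20%, against 24.9% of all genes. The median change was 0.04, against 0.02 over all genes, and changes ran from -1.12 (Krt15) to 0.63 (Krt7). For 31 genes the 95% interval of the change lay within a 2-fold difference in either direction. The exceptions were Krt5, Krt7, Krt14 and Krt15.

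Krt8 and Elf3 were the genes that rose. Krt8 read 9.17, 8.94 and 9.38 in the controls and 9.54, 9.78 and 9.71 in the mutants. All mutant values exceeded all control values, and the change of 0.52 ± 0.12 (SE, n = 3 per group) is 1.43-fold (limma, Benjamini-Hochberg adjusted p = 0.0461). Its 3 probe sets changed by 0.45 to 0.52. Elf3, an ETS-family transcription factor of epithelial cells, read 5.88, 5.88 and 5.93 against 6.30, 6.29 and 6.24. Every mutant value exceeded every control value, the SD was 0.03 in each group, and the change of 0.38 ± 0.07 (SE, n = 3 per group) is 1.30-fold (limma, Benjamini-Hochberg adjusted p = 0.0162). Only 1 probe set measures Elf3.

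The promoters of these 2 genes are shown because they are the ones that passed the test. Each run holds the 250 bases before the annotated start of the gene and 5 bases from it, from RefSeq on GRCm38.p6, minus strand, written 5′ to 3′. Krt8 lies at chr15:102004338-102004592 and Elf3 at chr1:135258468-135258722. Capitals mark the overlapping matches on both strands to the TATA box TATAAA, which in Krt8 span the annotated start itself. Elf3 has no match in this window.
Krt8: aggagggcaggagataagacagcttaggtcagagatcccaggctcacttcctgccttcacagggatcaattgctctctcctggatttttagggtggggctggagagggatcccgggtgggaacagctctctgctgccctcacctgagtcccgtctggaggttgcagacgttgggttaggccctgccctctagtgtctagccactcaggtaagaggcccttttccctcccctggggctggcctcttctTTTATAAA
Elf3: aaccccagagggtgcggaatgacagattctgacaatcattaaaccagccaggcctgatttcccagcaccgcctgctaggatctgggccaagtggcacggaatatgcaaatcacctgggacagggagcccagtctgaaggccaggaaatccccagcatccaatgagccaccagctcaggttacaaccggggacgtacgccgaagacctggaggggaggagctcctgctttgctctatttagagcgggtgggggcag
Promoter windows of 300 bases were found for 21 of the 35 genes. TATAAA on either strand occurred in 2 of them (Krt8 and Marveld2), and in 15.7% of the 27025 genes with a window. The Grainyhead-like motif AACCGGTT occurred in 0 of the 21 and in 0.174% of all. Its looser form AACNGGTT, which includes it, occurred in 2 (Rab25 and Sfn) and in 2.35% of all. These matches are descriptions of the letters in this window.

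Of the 8 keratins, Krt8 rose and the other 7 did not pass. The 4 simple keratins had positive and the 4 stratified keratins negative differences over all 6 arrays. Krt18, the filament partner of Krt8 and its direct neighbour in the genome, read 8.91, 8.82 and 9.18 against 9.21, 9.33 and 9.32, a change of 0.32 (limma, Benjamini-Hochberg adjusted p = 0.140). Krt7 read 6.55, 6.71 and 7.41 against 7.44, 7.65 and 7.47, a change of 0.63 (adjusted p = 0.127). Krt19 read 6.13, 6.32 and 6.89 against 6.98, 6.76 and 6.91, a change of 0.44 (adjusted p = 0.226). For Krt7 and Krt18 every mutant arch was above every control arch, by a small margin over control array 3, whereas the Krt19 values overlapped. All 4 simple keratins had an unadjusted p under 0.05.

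Krt15, a keratin of basal cells, had the lowest mutant values relative to control of all 35 genes. It read 8.08, 8.51 and 9.20 in the controls and 8.04, 6.98 and 7.42 in the mutants. The groups did not overlap, although mutant array 1 nearly reached control array 1, and the change of -1.12 ± 0.32 (SE, n = 3 per group) did not pass (limma, Benjamini-Hochberg adjusted p = 0.0908). Krt5 read 7.26, 7.32 and 8.23 against 7.54, 6.99 and 6.67, a change of -0.53 (adjusted p = 0.368). Its filament partner Krt14 read 7.80, 8.35 and 9.55 against 8.78, 8.33 and 8.03, a change of -0.19 (adjusted p = 0.852). The 2 partners overlapped between groups, and both were highest in control array 3. Without control array 3, the difference of Krt14 turned to 0.30, and those of Krt5, Krt15 and Krt17 were -0.22, -0.81 and -0.03. Krt14 is represented by a probe set of the x type, which can bind related transcripts, and a further probe set of it read 6.29, 6.93 and 8.45 in the controls. Krt17 changed by -0.14 at these low signals.

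The keratins were also averaged within each array. The mean deviation of the 4 simple keratins was -0.42, -0.41 and 0.11 in the controls and 0.19, 0.28 and 0.25 in the mutants. For the 4 stratified keratins it was -0.21, 0.10 and 0.85 against 0.16, -0.46 and -0.45. The simple minus the stratified mean was -0.21, -0.50 and -0.74 in the controls and 0.02, 0.73 and 0.69 in the mutants. The simple and the stratified mean had the same sign on control arrays 1 and 3 and on mutant array 1, and the stratified mean overlapped between the groups. Relative to the median deviation of the 27 epithelial genes that are not keratins, the simple keratins stood at -0.20, -0.28 and -0.13 in the controls and at 0.09, 0.22 and 0.24 in the mutants. The stratified keratins stood at 0.00, 0.23 and 0.62 in the controls and at 0.06, -0.51 and -0.45 in the mutants relative to the same genes, and these values overlapped. This contrast was formed with the values of single keratins known, so it restates them, and no test was made of it. Krt15 and Krt19, which are direct neighbours in the keratin cluster, differed by -1.12 and 0.44 between the groups.

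**Figure D4:**
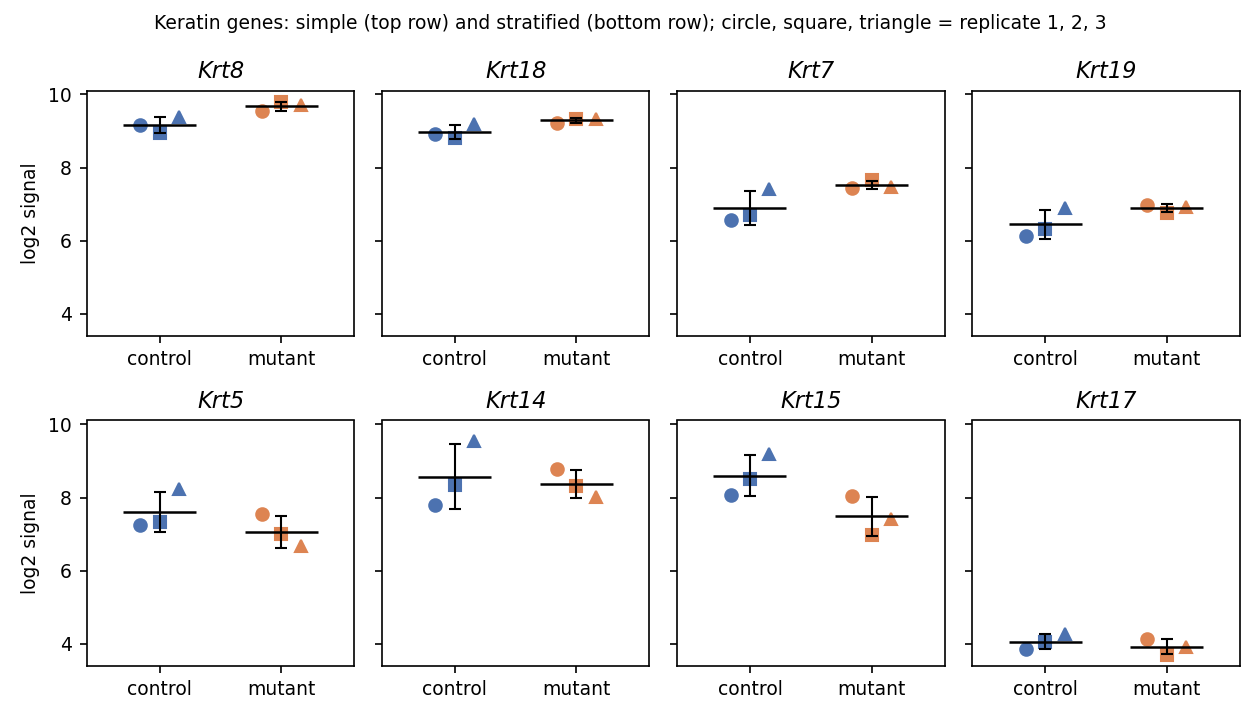
Log2 signal of the 8 keratin genes (panels) in labelled-control (blue) and labelled-mutant (orange) arches; circle, square and triangle are arrays 1, 2 and 3, the horizontal line is the mean and the bar its SD (n = 3). The mean of Krt8 is 0.52 higher in the mutants and that of Krt15 1.12 lower (Krt15 did not pass the test), and control array 3 is the highest control in every panel.

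Tight-junction and adhesion genes did not pass. The claudins Cldn4, Cldn6 and Cldn7, strands of the tight junction, changed by 0.36, 0.46 and 0.37, with limma's Benjamini-Hochberg adjusted p between 0.247 and 0.319. Cldn6 read 6.86, 7.11 and 7.68 against 7.55, 7.86 and 7.61. Control arrays 1 and 2 lay below all mutant arches and control array 3 among them. Cldn7 read 8.10, 8.30 and 8.89 against 8.69, 8.82 and 8.89. There, too, control arrays 1 and 2 lay below all mutant arches, and control array 3 was level with the highest mutant. Cldn3 changed by 0.14 and Marveld2, which encodes tricellulin of three-cell junctions, by 0.28. The change of Epcam was -0.13 ± 0.16 (SE), with a 95% interval from -0.49 to 0.23.

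Desmosome genes, which rivet epithelial cells to each other, did not pass either. Dsg2, a desmosomal cadherin, came nearest. It read 9.28, 8.93 and 9.19 against 8.79, 8.46 and 8.68, a change of -0.49 ± 0.12 (SE, n = 3 per group) without overlap (limma, Benjamini-Hochberg adjusted p = 0.0531). Its 6 probe sets changed by -0.49 to 0.03. Desmoplakin (Dsp), the linker to keratin filaments, read 10.26, 10.30 and 10.76 against 10.52, 10.37 and 10.38. The plakophilins Pkp1 and Pkp3, plakoglobin (Jup) and Perp changed by -0.06, 0.07, -0.01 and -0.09. Perp read 9.26, 9.49 and 10.10 against 9.67, 9.45 and 9.45, with control array 3 above all others.

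Of the transcription factors other than Elf3, none passed. Trp63 changed by 0.11 ± 0.17 (SE) with a 95% interval from -0.28 to 0.49. Grhl2, a Grainyhead-like factor that maintains epithelial junctions, read 7.84, 7.64 and 8.12 against 8.04, 8.05 and 7.90, and Grhl3, its relative in surface ectoderm, read 6.74, 6.68 and 7.42 against 7.17, 6.64 and 6.90. The changes were 0.13 and -0.04 with overlapping groups. Ovol2, a repressor of mesenchymal genes, changed by -0.05 and Ehf by -0.04. The epithelial splicing regulators Esrp1 and Esrp2 changed by 0.04 and 0.14, and Esrp1 read 8.83, 8.95 and 9.63 against 9.26, 9.08 and 9.19.

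None of the 4 membrane serine proteases and inhibitors passed. Matriptase (St14) changed by 0.40, reading 6.17, 6.31 and 7.07 against 6.86, 7.10 and 6.80, and its relative prostasin (Prss8) by 0.01. The inhibitors of these proteases, Spint1 and Spint2, changed by -0.13 and -0.22. Spint2 read 9.78, 9.82 and 9.91 against 9.67, 9.66 and 9.53, which is without overlap but did not pass (limma, Benjamini-Hochberg adjusted p = 0.180). Among the genes of polarised trafficking, Rab25 changed by 0.27 and Ap1m2, an adaptor subunit for basolateral sorting, by 0.36. Ap1m2 read 7.07, 7.15 and 7.72 against 7.70, 7.64 and 7.66, again with control array 3 beside the mutants. Sfn changed by -0.09.

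The count of genes past the threshold depended on single arrays. Without labelled-control array 3, 10 of 35 epithelial genes rose and 0 fell, against 1.29% and 3.53% of all genes. At an unadjusted p under 0.05, 18 were higher and 2 lower. For fits with an array left out, the share of all genes at that unadjusted level was not counted (18.7% over all 6 arrays). The 10 were Krt7 (0.88), Krt8 (0.63), Krt18 (0.43), Krt19 (0.66), Cldn4 (0.56), Cldn6 (0.69), Cldn7 (0.60), Elf3 (0.40), St14 (0.68) and Ap1m2 (0.56), and limma's adjusted p (Benjamini-Hochberg) ran from 0.00384 for Krt7 to 0.0498 for Cldn4. The median change was then 0.25, and 23 genes did not overlap between the groups, against 36.9% of all genes. Labelled-control array 3 was the highest control for 33 of the 35 genes, so leaving it out raises their differences whatever the mutant values. The upward direction of these changes is therefore no separate result. Elf3 alone passed when control array 1 was left out, Dsg2 alone (lower) when control array 2 was, and Krt15 alone (lower) when mutant array 1 was, at limma's Benjamini-Hochberg adjusted p of 0.0326, 0.0450 and 0.0412. Leaving out mutant array 2 or 3 left 0 genes past the threshold (limma), with 8 and 7 at an unadjusted p under 0.05. In the order of these 5 fits, 5.61%, 3.03%, 4.49%, 2.64% and 2.39% of all genes passed in either direction. In the same order 8, 7, 11, 8 and 10 epithelial genes did not overlap between the groups, against 40.8%, 33.6%, 34.7%, 31% and 31.5% of all genes.

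Other settings moved the count between 1 and 3. Dsg2 alone (lower) passed with the replicate number as a block, where 3.61% of all genes passed. Krt8, Elf3 and Dsg2 passed after renewed quantile normalization and with trend and robust settings, where 5.82% and 5.67% passed. Elf3 alone passed with the mean of all probe sets and with low signals raised to a floor, where 4.46% and 1.81% passed. Krt8 and Elf3 passed with median centring and with dim genes left out, where 5.53% and 6.5% passed.

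**Figure D5:**
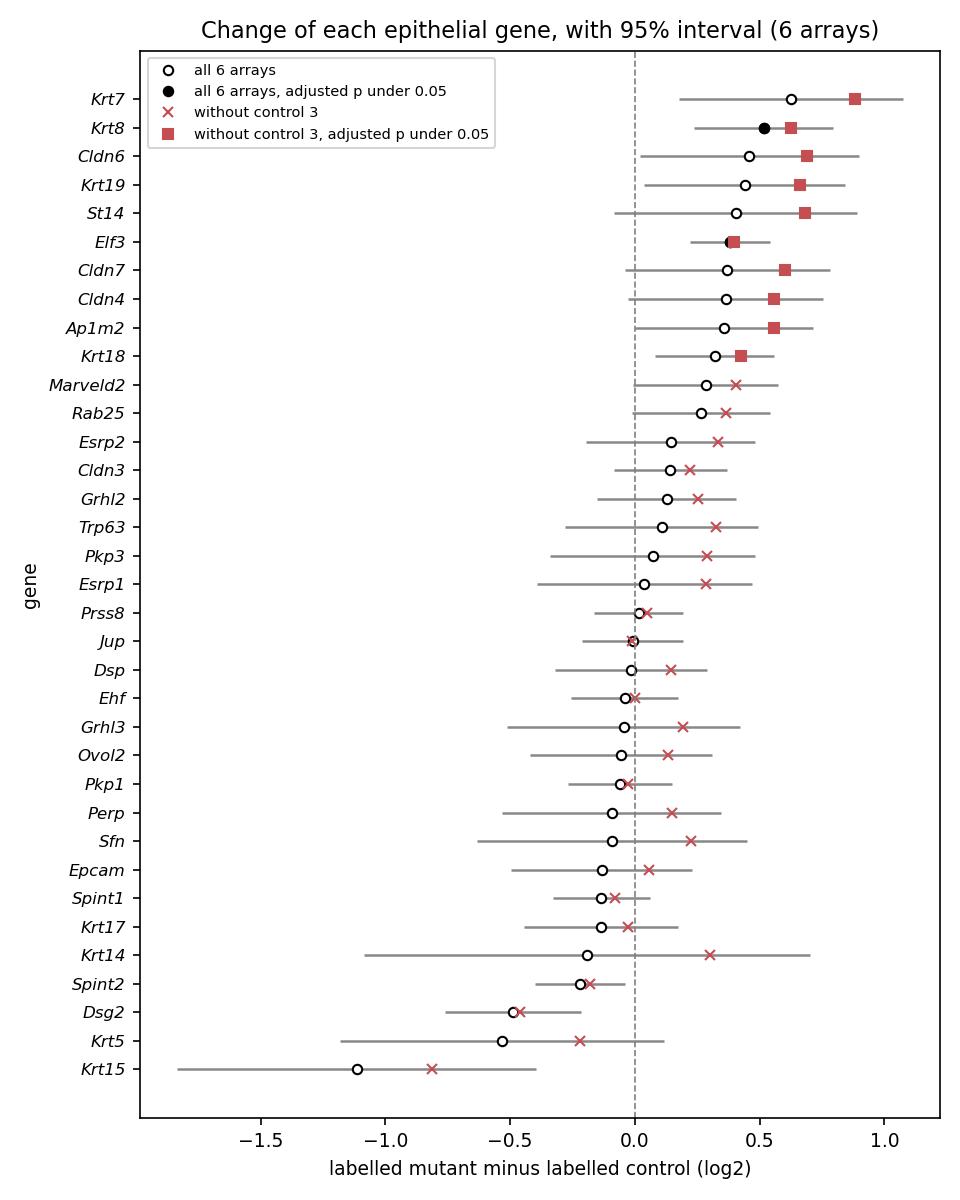
Change of each epithelial gene (labelled mutant minus labelled control, log2; horizontal axis) over all 6 arrays (circles, filled where the adjusted p is under 0.05, grey lines the 95% intervals) and without control array 3 (red crosses, squares where it is under 0.05). Filled circles mark Krt8 and Elf3, and squares mark the 10 genes that passed without control array 3. That array was the highest control for 33 of the 35 genes, so leaving it out raises their changes.

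Other genes of the epithelium were counted in the same way. The shares over all genes were 1.23% higher and 4.3% lower, and 18.7% at an unadjusted p under 0.05 in either direction. Of 33 further epithelial structure genes measured, 0 passed (limma), with 4 higher and 3 lower at an unadjusted p under 0.05 and a median change of -0.01. E-cadherin (Cdh1) read 9.23, 9.11 and 9.50 against 9.53, 9.35 and 9.43. The offset of these genes was again highest on control array 3, at 0.16 against -0.13 and -0.11 on the other two controls. Cldn1 and Llgl2, a claudin and a polarity gene, changed by -0.66 and 0.35 (limma, Benjamini-Hochberg adjusted p = 0.121 and 0.124). Genes of the basal layer varied in their spread. Itga6, an integrin of hemidesmosomes, read 10.21, 10.19 and 10.54 against 10.14, 10.14 and 10.07, and the changes of Itgb4, Lama3 and Lamb3 were -0.15, -0.05 and 0.14. Dsc3, a desmosomal cadherin of stratified epithelium, read 5.96, 5.65 and 7.05 against 5.59, 4.82 and 4.56 (change -1.23; limma, Benjamini-Hochberg adjusted p = 0.105), and Col17a1, a hemidesmosome collagen, read 5.42, 6.21 and 7.03 against 5.93, 5.25 and 5.07 (change -0.80; adjusted p = 0.298).

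Of 7 genes of the periderm, the outermost layer of embryonic skin, which include Krt17, Sfn and Grhl3 from the genes above, 0 passed (limma), with 1 at an unadjusted p under 0.05. Of 16 regulators found in arch or other epithelia, Hopx rose by 0.63 and Sox2 and Isl1 fell by 0.67 and 0.85 (limma, Benjamini-Hochberg adjusted p = 0.00927, 0.0297 and 0.0049). Isl1 is also 1 of the 12 neuronal markers, of which 5 fell, and Sox2 is 1 of the 12 neural tube markers, of which 2 fell. Over all genes, 1.23% rose and 4.3% fell, and 18.7% had an unadjusted p under 0.05. The offset of the regulators was lowest on control array 3, at -0.06. Of 19 genes listed as epithelial signals, which include the receptor gene Edar, 0 passed (limma), with 4 higher and 1 lower at an unadjusted p under 0.05. Fgf8, the growth factor of the proximal arch ectoderm, came nearest, at 6.01, 5.86 and 6.81 against 6.94, 7.44 and 7.17 (change 0.96; adjusted p = 0.0546). Wnt10b and Wnt10a changed by 0.30 each (adjusted p = 0.0625 and 0.0748). The offset of the signals was highest on mutant array 1, at 0.13, with control array 3 at 0.10. The Fgf8 groups did not overlap, and without control array 3 it passed with a change of 1.25 (limma, Benjamini-Hochberg adjusted p = 0.0042). That array held the highest control value of Fgf8, so leaving it out raises the change. Shh read 9.67, 9.59 and 9.71 against 9.37, 9.55 and 9.84, and Edn1 5.79, 5.71 and 5.63 against 5.30, 5.45 and 5.70, both overlapping.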

How the data were processed

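Total RNA from branchial arch 1, with 3 samples per genotype label, was hybridised to 1-colour arrays. The authors deposited 1 value per probe set and array, taken here as log2 signal because the values run from 2.63 to 14.68. They share 1 distribution on all 6 arrays, so a general shift of all genes cannot be seen. Background correction, summary and software: not given in the sources used here. Of the probe sets, 34958 had 1 gene symbol in the platform annotation, 932 several and 9211 none. Those with 1 symbol gave 18194 genes, each taken from its brightest probe set.

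Differences were fitted with limma 3.58.1 (R 4.3.3; lmFit, eBayes) over all genes, two-sided and with no covariate, at a threshold of 0.05 after Benjamini-Hochberg adjustment. The number of arrays limits the precision. The fit was tested on simulated data. The genes and lists were chosen with earlier results of these data known. Named with all values are the genes past the threshold, the 6 with the largest absolute moderated t, the 6 brightest and 8 defining genes; array values of other genes were added after they were seen; lists of other cell types are given by counts, offsets and summed signals, with Prrx1 and Twist1 by their range. Alternatives were a replicate block, renewed quantile normalization over the genes, median centring, the mean of probe sets, leaving out dim genes, flooring signals at the 20th percentile, trend and robust settings, and leaving out each array.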

Additional observations from a re-analysis of the deposited data

How the results depend on the processing

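Against 2 genes past the threshold (2 higher, 0 lower; limma), the count was 1 with the mean of probe sets and 1 with floored signals, both higher, and 3 with renewed quantile normalization and with trend and robust settings, each with 1 lower (Dsg2). Median centring and leaving out dim genes gave 2. Leaving out 1 array at a time gave 0 to 10 in all, 0 to 10 higher and 0 to 1 lower. Genes without overlap numbered 7 over all arrays, 11 with renewed quantile normalization (against 27.3% of all genes) and 7 to 23 with 1 array left out, and the median change ran from -0.0235 to 0.25 when 1 array was left out. Replicate numbers showed no sign of pairing the arrays. Same-numbered arrays of the groups had correlations of deviations of -0.21, -0.12 and -0.07, and differently numbered ones -0.08 to 0.19. With 3 arrays per group these correlations constrain one another, so they cannot settle whether the numbers pair. With a replicate block, 1 gene passed, 0 higher and 1 lower (Dsg2). Over all alternatives, limma's Benjamini-Hochberg adjusted p ran from 0.0207 to 0.181 for Krt8 and from 0.00789 to 0.0857 for Elf3. With 3 arrays per group, the 95% interval of an epithelial gene's change reached a median of 0.36 to either side (0.16 to 0.89). The deposited values do not give signal over background per array.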
